A study of Arabidopsis thaliana with 12 samples.

Results

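The features described here are 80 array probes, each annotated to 2 or more Arabidopsis thaliana genes, that stood at the ends of the range between bright and dim blue light. Of the 3439 probes on the array, 870 were annotated to several genes. The 60 with the highest mean intensity over all 12 columns were left out, and the other 810 were ranked by the log2 of (mean at 200 µE + 0.1) over (mean at 20 µE + 0.1), called the ratio value below. The 40 highest are called risers and the 40 lowest fallers. These names stand for the 2 ends of the ranking: the members were chosen on the very contrast described, so their differences are given as a description. A fit on the same contrast is reported below, and its counts are no evidence for the choice. The risers named 96 genes and the fallers 91, and the signal of a probe may come from any gene it names.

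Total RNA came from wild-type plants of the Landsberg ecotype kept for 48 h in blue light, with 6 samples at 200 µE and 6 at 20 µE (µE is the usual shorthand for a photon flux). The labels number the samples 1 to 6 in each group and name no tissue, age or number of plants, nor whether the samples came from separate plants. Values resembled each other within couples of columns (1 with 2, 3 with 4, 5 with 6), so each couple was averaged and counted once: means are followed by the SD over 3 couple means per group. In such bulk RNA, fewer cells of a type and less RNA per cell cannot be told apart.

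Many Arabidopsis genes belong to families that arose by duplication, either as tandem copies next to each other or as pairs left on different chromosomes by duplications of the whole genome. A hybridisation probe made from one copy can bind transcripts of a close relative, and such relatives can differ in when and where they are expressed. Blue light is sensed in plants by cryptochromes and phototropins and is absorbed by chlorophyll, so that a bright level acts both as a signal and as a load on the chloroplast.

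The columns of the groups differed in their distribution of values. Their median intensity over all probes lay between 0.171 and 0.218 units at 200 µE and between 0.401 and 0.574 units at 20 µE (arbitrary units), and 16.5 to 18.3% of the values at 200 µE and 12.4 to 14.3% at 20 µE were listed at 0. Column means overlapped, at 0.814 to 0.970 units at 200 µE and 0.892 to 1.04 units at 20 µE. Among the 810 ranked probes the median ratio value was -0.79, with 132 above 0, 612 below 0 and 66 at exactly 0. A riser therefore stands above a background that was itself lower at 200 µE. The columns of the groups did not overlap in 23 of 40 risers, where 3.21% of the 810 ranked probes were apart as higher, and in 37 of 40 fallers, where 46.8% were apart as lower. The rule used this contrast, so nothing is read from these shares. Overlap was judged over single columns here and below, without regard to couples, so a column low in both groups can produce it. The last risers inside the limit had ratio values of 0.69, 0.69 and 0.68, and the first outside 0.67, 0.62 and 0.61. The last fallers inside had -2.29, -2.29 and -2.28, and the first outside -2.28, -2.28 and -2.28.

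Among the risers, the highest ratio value belonged to a probe of the stearoyl-ACP desaturase family, the plastid enzymes that place the first double bond in fatty acids. This probe, named for AT5G16230, AT3G02620 and AT3G02610, measured 0.459, 0.686 and 0.809 units at 200 µE (lowest, median and highest column) against 0.019, 0.028 and 0.159 units at 20 µE, a ratio value of 2.15. No column of one group reached into the other. A probe of BUB3.1, BUB3.2 and AT1G69400, WD40 proteins related to a spindle checkpoint component, followed with 1.02, 1.44 and 1.57 units at 200 µE against 0.175, 0.312 and 0.347 units at 20 µE (ratio value 1.92). Its 3 couples gave nearly one value, 1.86, 1.95 and 1.97. The thylakoid calcium sensor CaS (AT5G23060) shared a probe with AT3G59780, which measured 0.317, 0.701 and 0.948 units at 200 µE against 0.085, 0.106 and 0.141 units at 20 µE (ratio value 1.84). The groups did not overlap, and the spread at 200 µE was the wider: 0.646 ± 0.292 units there and 0.108 ± 0.023 units at 20 µE (SD, n = 3 couples).

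Probes of regulators of transcription or chromatin numbered 4 among the risers. ALC and SPT, bHLH transcription factors of carpel and fruit development, shared a probe with 1.17, 1.46 and 2.18 units at 200 µE against 0.432, 0.536 and 0.769 units at 20 µE, and ratio values between 1.27 and 1.35 in the 3 couples. A probe of AT3G60490 and AT2G44940, AP2/ERF transcription factors, averaged 0.607 ± 0.196 units at 200 µE and 0.257 ± 0.105 units at 20 µE, but its columns overlapped. At 20 µE its columns 5 and 6 stood at 0.749 and 0 units, and without column 5 the mean there was 0.158 units. That of AT4G21010 and AT4G20330, relatives of the beta subunit of the general factor TFIIE, averaged 1.92 ± 0.540 units at 200 µE and 0.839 ± 0.187 units at 20 µE and overlapped too. The histone variant H3.3 genes AT5G10980 and AT4G40030 shared a probe with 0.454 ± 0.203 units at 200 µE and 0.236 ± 0.154 units at 20 µE, again overlapping. Of these 4, the probe of ALC and SPT was thus the one whose groups were apart. The TFIIE probe overlapped through column 5, its lowest column in both groups, at 0.627 units at 200 µE and 0.288 units at 20 µE. Taken by couple, all 4 probes had ratio values above 0, which the rule favours, so nothing is read from it. The lowest of the 3 couples was 0.95 for the TFIIE probe, 0.55 for the H3.3 probe and 0.02 for the AP2/ERF probe.

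RNA helicases, which unwind RNA, appeared on 2 riser probes. The first, of AT1G58060, AT1G58050 and their neighbour AT1G58055, measured 0.083, 0.413 and 0.485 units at 200 µE against 0.0045, 0.101 and 0.129 units at 20 µE (ratio value 1.25), with overlapping columns. The second, of the DEAD-box genes AT3G58570, AT3G58510, AT3G02065 and AT2G42520, measured 0.566, 0.777 and 0.999 units at 200 µE against 0.114, 0.294 and 0.484 units at 20 µE. The second probe's groups were apart, yet its ratio value differed by couple: 1.16 in columns 1 and 2, 0.25 in columns 3 and 4 and 2.28 in columns 5 and 6.

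Kinase-related genes gave 2 risers. The beta subunits of SnRK1, the energy-sensing kinase of plants, shared a probe (AKINBETA1 and AT4G16360) with 0.537 ± 0.226 units at 200 µE and 0.187 ± 0.065 units at 20 µE. AT1G48490 and AT3G17850, AGC kinases of the IRE group, shared one with 1.15 ± 0.095 units at 200 µE and 0.615 ± 0.206 units at 20 µE. The SnRK1 probe overlapped between groups and the IRE probe did not.

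Other leading risers named genes without a role given here, members of a family of unknown function or a run of neighbours. A probe of AT5G03110 and AT2G37100 measured 0.989, 2.02 and 2.24 units at 200 µE against 0.329, 0.398 and 0.525 units at 20 µE. That of AT5G58930 and AT3G46990 measured 0.824, 1.49 and 2.18 units at 200 µE against 0.053, 0.405 and 0.555 units at 20 µE. Another, of AT5G22310, AT3G11590 and AT3G11591, measured 1.18, 1.3 and 1.74 units at 200 µE against 0.273, 0.433 and 0.594 units at 20 µE. Each of the 3 was separate between groups. AT1G79420, AT1G49840, AT1G27690 and AT3G19540, of a family of unknown function, shared a probe with 0.315, 0.418 and 0.443 units at 200 µE against 0.066, 0.079 and 0.134 units at 20 µE. A run of neighbours on chromosome 5, AT5G10660, AT5G10680, AT5G10690 and AT5G10700, shared one with 1.64, 1.92 and 1.94 units at 200 µE against 0.574, 0.713 and 1.08 units at 20 µE. AT5G10690 of that run encodes a protein with pentatricopeptide repeats, which bind RNA, and CBS domains, and AT5G10700 a relative of peptidyl-tRNA hydrolase. AT1G52550 and AT3G15780 shared a probe with 1.57, 2.32 and 2.59 units at 200 µE against 0.765, 0.924 and 1.06 units at 20 µE.

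Further risers of known family had smaller ratio values. ATCSA-1 and AT1G19750, WD40 proteins related to the human DNA repair factor CSA, shared a probe with 1.54 ± 0.693 units at 200 µE and 0.822 ± 0.193 units at 20 µE. LSMT-L, a SET-domain lysine methyltransferase, shared one with AT1G01920 and AT3G56570, which averaged 1.68 ± 0.178 units at 200 µE and 1.01 ± 0.229 units at 20 µE. The resistance genes AT1G63740 and AT1G63730 of the TIR-NBS-LRR class, tandem neighbours, shared one with 1.92 ± 0.720 units at 200 µE and 0.940 ± 0.328 units at 20 µE. A mitochondrial ribosomal protein probe (AT4G21460 and AT3G18240) averaged 2.04 ± 0.726 units at 200 µE and 1.06 ± 0.306 units at 20 µE. In this set of 4 the columns of LSMT-L were separate between groups and those of the others overlapped. Another probe naming LSMT-L, with other genes, had a ratio value of -0.93.

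The fallers were low at 200 µE and mostly close to the floor of the scale. Of the 40, 22 were listed at 0 in at least 1 of the 6 columns at 200 µE, 12 in 3 or more and 4 in all 6, and 3 had a 0 at 20 µE. Over the 810 ranked probes these counts were 191, 139, 93 and 134, with 66 probes at 0 in all 12 columns. The rule favours probes low at 200 µE and above 0 at 20 µE, so nothing is read from these counts. For the 4 fallers at 0 in all 6 columns, the 200 µE term of the ratio value is the added 0.1 alone.

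The lowest ratio value, -3.30, belonged to AT4G21065 and AT4G33170, members of the pentatricopeptide repeat family that serves RNA editing and processing in organelles. Their probe measured 0.029, 0.056 and 0.080 units at 200 µE against 1.17, 1.35 and 1.73 units at 20 µE, far apart and with no value at 0. A second probe of this family, of AT4G21300 and the editing factor OTP86 of the chloroplast, measured 0.050, 0.250 and 0.416 units at 200 µE against 1.07, 1.79 and 2.18 units at 20 µE (ratio value -2.35). With the riser of AT5G10690, the family was named by 2 fallers and 1 riser.

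Enzymes of cell wall polysaccharides were named by 3 fallers and 1 riser, a grouping made after the members were known. The pectin methylesterases PME61 and ATPMEPCRD shared a probe with 0, 0.000805 and 0.025 units at 200 µE against 0.470, 0.688 and 0.805 units at 20 µE. CSLC5, CSLC12, CSLC04 and ATCSLC08, glucan synthases of the xyloglucan backbone, shared one with 0.035, 0.067 and 0.115 units at 200 µE against 0.620, 1.13 and 1.34 units at 20 µE (ratio value -2.72). Other probes naming some of these genes lay near 0. The ratio value was 0.18 for CSLC5 and ATCSLC08 with CSLC6, on a probe that ran from 0 to 2.33 units at 20 µE. For CSLC12 with other genes the ratio value was -0.24 on one probe and 0.08 on another, left out as among the brightest. That bright probe averaged 76.5 units at 200 µE and 72.1 units at 20 µE. Its highest column, at 100 units, stood at the top of the scale. The oligogalacturonide oxidases AT4G20840 and AT4G20830, which act on pectin fragments, were listed at 0 in all 6 columns at 200 µE and measured 0, 0.532 and 1.26 units at 20 µE. Both of their columns 5 and 6 at 20 µE were at 0, so that couple showed no difference. The riser of this kind named the pectin lyase-like protein AT3G14040 beside AT3G14060 and AT1G54120, and averaged 0.599 ± 0.150 units at 200 µE and 0.216 ± 0.027 units at 20 µE.

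Regulators of transcription or chromatin were named by 3 fallers. The MYB-related genes AT1G74840 and AT1G19000 shared a probe with 0.103 ± 0.056 units at 200 µE and 1.12 ± 0.495 units at 20 µE. OBE1 and OBE2, PHD-finger proteins needed for meristems, shared one with 0.015 ± 0.025 units at 200 µE and 0.521 ± 0.163 units at 20 µE, with 4 of 6 columns at 200 µE listed at 0. AT5G06270 and AT3G11600, small proteins that bind the root hair regulator GL2, shared one with 0.021 ± 0.019 units at 200 µE and 0.508 ± 0.170 units at 20 µE. All 3 were separate between groups.

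Metabolic enzymes were named by 4 fallers. The glutathione reductases GR and GR1, which regenerate glutathione in organelles and in the cytosol, shared a probe listed at 0 in 5 of 6 columns at 200 µE (highest 0.0039 units) against 0.261, 0.449 and 0.622 units at 20 µE. AT3G59890 and AT2G44040, dihydrodipicolinate reductases of lysine synthesis, shared one with 0.105 ± 0.026 units at 200 µE and 0.942 ± 0.095 units at 20 µE. AT1G36280 and AT4G18440, adenylosuccinate lyases of purine synthesis, shared a probe that overlapped, at 0, 0.010 and 0.023 units at 200 µE against 0, 0.319 and 1.42 units at 20 µE. The highest of these was column 5, without which the mean at 20 µE was 0.252 units, against 0.447 units over all 6. The nitrilase-family genes AT5G12040 and AT4G08790 shared one with 0.051, 0.115 and 0.147 units at 200 µE against 0.507, 1.05 and 1.93 units at 20 µE. A second probe of these nitrilase genes was at 0 in every column. Second probes had ratio values of 0.16 for the dihydrodipicolinate reductases, at 0.012 and 0 units, and -0.31 for the adenylosuccinate lyases.

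Among further fallers, the AAA-type ATPases AT1G62130 and AT4G24860 were listed at 0 in every column at 200 µE and measured 0, 1.11 and 1.39 units at 20 µE, with both zeros again in columns 5 and 6. Another probe of that class, AT4G36580 and AT2G18330, measured 0, 0.019 and 0.060 units at 200 µE against 0.116, 0.911 and 1.04 units at 20 µE. Columns 1 and 2 of this ATPase probe differed less than the others, with a ratio value of -1.26 against -3.09 and -2.84. The aspartyl proteases AT1G03230 and AT1G03220, tandem neighbours, shared a probe at 0 in 5 of 6 columns at 200 µE (highest 0.027 units) and at 0.619, 0.784 and 0.866 units at 20 µE. The nucleic acid binding proteins AT1G03810, AT4G28440 and AT2G33845, of the OB-fold type, shared one with 0, 0.023 and 0.043 units at 200 µE against 0.838, 1.01 and 1.45 units at 20 µE. AT1G20065 and AT1G20070 shared a probe at 0 in all 6 columns at 200 µE and at 0.498, 0.540 and 1.17 units at 20 µE. AT1G20065 was also on a probe with AT1G20060 that lay just outside the limit of the risers (ratio value 0.62). That probe averaged 0.292 ± 0.054 units at 200 µE and 0.155 ± 0.092 units at 20 µE. The class III peroxidases AT4G31760 and AT2G24800 shared a probe with 0.091 ± 0.049 units at 200 µE and 0.999 ± 0.270 units at 20 µE. Except for the probe of AT1G62130, all of these fallers were separate between groups.

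Some genes were named by members at both ends. The RNA helicase genes AT1G58060 and AT1G58050 with their neighbour AT1G58055, a riser on the probe given above, were also the genes of a faller, listed at 0 in 5 of 6 columns at 200 µE (highest 0.0027 units) against 0.427, 0.507 and 0.731 units at 20 µE. The WD40 genes AT1G04140 and AT5G43930 were likewise on a riser, with 0.646 ± 0.305 units at 200 µE and 0.329 ± 0.116 units at 20 µE, and on a faller, with 0.045, 0.075 and 0.143 units at 200 µE against 0.638, 1.01 and 1.62 units at 20 µE. The ratio values of the paired probes were 1.25 and -2.70 for the helicase genes and 0.80 and -2.63 for the WD40 genes.

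Other probes of the same genes did not always lie on a member's side. For 10 risers another probe named exactly the same genes, and 1 of these 10 other probes, that of AT5G58930 and AT3G46990, had a ratio value above 0 (0.60). For 12 fallers the other probe lay below 0 in 6 cases, above 0 in 4 and at 0 throughout in 2. Of the 810 ranked probes, 132 were above 0 and 612 below. Members were picked as extremes, so nothing is read from these counts, and why a partner probe lay on the other side was not tested. Counting every probe that shared at least 1 gene, 20 risers had 23 such partners, 3 of them above 0, and 20 fallers had 23, 12 of them below 0. The desaturase riser is one example: a probe of AT3G02620 and AT3G02610 without AT5G16230 measured 0.498 ± 0.043 units at 200 µE and 1.01 ± 0.123 units at 20 µE, and a probe of AT5G16230 alone 0.073 ± 0.022 units at 200 µE and 0.104 ± 0.094 units at 20 µE. The 2 ERF genes AT3G60490 and AT2G44940 had a second probe with 0.665 ± 0.044 units at 200 µE and 1.38 ± 0.481 units at 20 µE. Second probes had ratio values of -1.20 for the riser genes AT5G03110 and AT2G37100, and -1.44 for AT1G52550 and AT3G15780. For AT4G21010 and AT4G20330 the second probe had -0.88. The oligogalacturonide oxidases had one, among the 60 left out as brightest, with 2.55 ± 0.891 units at 200 µE and 1.99 ± 0.289 units at 20 µE. Closer partners also occurred: for AT5G12120 and AT2G26920, ubiquitin-associated domain proteins, the ratio values were -2.37 and -1.98, and for AT5G05360 and AT2G38450 -2.58 and -1.84. Over all 870 probes of several genes, 93 pairs of probes named identical genes, 19 of them with opposite signs, and their ratio values differed by a median of 0.74.

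Within the groups, the difference was not even over the couples. The 40 risers had a median ratio value of 1.08 in columns 1 and 2, 1.09 in columns 3 and 4 and 0.90 in columns 5 and 6, and the fallers -2.57, -2.77 and -2.34. The sign held in all 3 couples for 38 of 40 risers and 38 of 40 fallers. The exceptions were the risers of AT4G35710 and AT4G35690 (-0.04 in columns 5 and 6) and of AT3G11810 and AT2G03330 (-0.06), and the fallers of AT1G62130 and of AT4G20840, at 0.00 there. In columns 5 and 6, 9 risers lay within 0.3 of 0, against 0 in columns 1 and 2 and 2 in columns 3 and 4. Columns 5 and 6 were nearest to 0 of the 3 couples in 23 risers and 24 fallers. Because members were chosen on the means over these columns, nothing is read from these counts. They were not taken over the other ranked probes.

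Some properties of the probes had no part in the rule. Probes naming 3 or more genes made up 32.5% of the risers (13 of 40), 22.5% of the fallers (9 of 40) and 25.3% of the 730 other ranked probes. At least 2 of the named genes lay side by side or 1 gene apart in 9 risers and 6 fallers (22.5% and 15.0%), against 14.1% of the other ranked probes. All named genes were on 1 chromosome in 11 risers and 13 fallers (27.5% and 32.5%), against 28.5%. These shares are descriptions, with no test. Role groups of 2 or more probes, assigned from general knowledge, held 16 risers and 22 fallers, and the largest held 7 of the 80.

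The other risers of known family were the nucleotidyltransferase genes AT3G56320 and AT2G40520, whose 3 couples gave 1.07, 1.08 and 1.11, the kelch-repeat genes AT1G16250 and AT3G63220, the neighbouring C1-domain genes AT1G44030 and AT1G44020 with AT1G29179, the proline iminopeptidase PIP with AT2G14390 and AT2G14290, and the VAP-like genes AT4G21450 and AT4G05060. Their ratio values lay between 0.69 and 1.09. PIP, AT2G14390 and AT2G14290 were also on a probe with AT2G14285, which had a ratio value of -1.69. That probe averaged 0.126 ± 0.002 units at 200 µE and 0.628 ± 0.165 units at 20 µE. AT3G56320 measured 0.382, 0.436 and 0.695 units at 200 µE against 0.112, 0.162 and 0.281 units at 20 µE. The dimmest riser, of AT5G55520 and AT4G26660, averaged 0.093 ± 0.046 units at 200 µE and 0.015 ± 0.003 units at 20 µE, where 2 columns were at 0.

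Fallers not yet named included the receptor-like kinases AT1G69790 and AT1G26970, with 0.027 ± 0.046 units at 200 µE and 0.642 ± 0.102 units at 20 µE. The kelch-repeat genes AT1G61540 and AT4G39590 shared a probe with 0.124 ± 0.010 units at 200 µE and 1.11 ± 0.111 units at 20 µE. AT4G25920 and AT4G14260, of a family of unknown function, had the steadiest of all 40 fallers, with 0.095 ± 0.008 units at 200 µE, 1.03 ± 0.047 units at 20 µE and couples at -2.55, -2.52 and -2.54. The probes of AT1G61540 and of AT4G25920 held no value at 0, that of AT1G69790 held 4 at 200 µE, and all 3 were separate between groups. The acylamino-acid-releasing enzyme AARE, a peptidase, shared a probe with AT5G36210, which averaged 0.077 ± 0.024 units at 200 µE and 0.782 ± 0.303 units at 20 µE. The Rab GTPase-activating genes AT4G29950 and AT2G19240 shared one with 0.045 ± 0.037 units at 200 µE and 0.675 ± 0.206 units at 20 µE. The WD40 genes AT3G33530 and AT2G26610 shared one with 0.156 ± 0.027 units at 200 µE and 1.24 ± 0.103 units at 20 µE. The last faller inside the limit named the F-box genes AT1G47350, AT1G47340 and AT1G47300, tandem neighbours, with 0.197 ± 0.074 units at 200 µE and 1.35 ± 0.523 units at 20 µE. These 4 were separate between groups as well.

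The size of the differences depended on the scale used. When the log2 values were quantile-normalised, the median difference between 200 µE and 20 µE was 2.55 over the risers (1.14 to 5.49) and -2.72 over the fallers (-5.33 to -1.87), against 0.00 over the ranked probes. Without normalisation these medians were 1.23 and -4.58, against -1.56 over the ranked probes and -1.46 over all 1561 listed features. Median centring gave 2.59 and -3.22. All 80 members kept their sign under each of these 3 scalings. They were picked as extremes of the same values, so this is a description and no evidence for them.

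In the fit of all 1561 listed features on quantile-normalised values (limma, adjusted p under 0.05), 40 of 40 risers passed as higher and 38 of 40 fallers as lower over 12 columns, where 24.0% and 25.8% of the 810 ranked probes did. Over couple means 34 risers and 31 fallers passed (11.5% and 11.0% of the ranked probes), and with the couple as a block 22 and 21 (7.28% and 8.15%). The fallers of AT4G36580 and AT1G36280 did not pass over 12 columns. Because the rule used this contrast, these counts describe the choice of members and are no evidence for it.

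Of 11 lists of pathway and tissue genes, matched by gene symbol or synonym, a single one was matched by a probe of several genes. That probe, of the photosystem II antenna genes LHCB4.1, LHCB4.2 and LHCB4.3, was no member: it averaged 0.295 units at 200 µE and 0.264 units at 20 µE and passed in the fit as higher (limma, log2 change 1.68 after quantile normalisation, adjusted p = 2.3e-05 over 12 columns, 0.0069 for means of couples). Without normalisation its log2 change was 0.16 and it did not pass (limma, adjusted p = 0.51). Markers of leaf, root, seed or senescence were named by none of these probes, so the tissue was not checked here.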

How the data were processed

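Only the processed value table was used. The deposited table holds intensity on a linear scale, with no value below 0. How the arrays were made, background-corrected or scaled is not given in the sources used here. Groups and replicate numbers came from the titles, and all 12 columns were mapped. Probes were named through the platform annotation, joined by gene identifier to a TAIR10.1 gene table (1664 of 1669 identifiers found); no protein or promoter sequence was used here. Functions are background knowledge. Gene names and descriptions were too sparse for the family words to sort members (4 of 80 matched), so roles were assigned by hand.

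Members followed the stated rule. For the fit, zeros became the 1st percentile of a column's positive values, columns were quantile-normalised on the log2 scale, probes of 1 gene were averaged by gene, and 1561 features were tested with limma 3.58.1 in R 4.3.3, two-sided, with Benjamini-Hochberg adjustment; the script was tested on simulated data. The p-values measure the spread between columns, which may be technical, and the number of arrays limits the precision. Same-numbered columns deviated together (correlations 0.154 to 0.503), so the fits with a block took the numbers to pair them. Fits named without a block left this pairing out. The labels do not say what the numbers mark. The members, lists and tests were chosen with earlier results of these data known. By rule, the 12 highest risers and 12 lowest fallers were given with lowest, median and highest column; the other probes named were chosen after their values were seen.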

Additional observations from a re-analysis of the deposited data

Results flagged for a closer look

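In the 45 sets of 6 columns of the members given in full, 2 held a column apart from the rest. Both were at 200 µE in column 5, with the other 5 columns at 0, so that any value above 0 would stand apart and the usual chance rate of 1 in 20 does not apply: the probe of AT1G03230 and AT1G03220 measured 0.027 units there, and the faller of AT1G58055, AT1G58060 and AT1G58050 measured 0.0027 units.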

How the results depend on the processing

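All 80 members kept their sign under the 3 scalings, which is no evidence for them, as they were picked on the same values. The constant added in the ratio value cannot change a sign. The choice of members was less stable. Of the 40 fallers, 25 were picked again with 0.01, 17 with 1 and 26 when columns were first divided by their medians; of the 40 risers, 23 were picked again by the quantile-normalised difference. Leaving out a couple of columns of both groups kept 32 to 38 risers and 29 to 35 fallers. The calls over 12 columns (limma) were 36 to 40 for risers and 32 to 39 for fallers without a couple, and 306 to 491 over the 870 probes of several genes, against 435. With the couple as a replicate block, fits on couple means called 22 risers, 21 fallers and 133 of the 870; without features at 0 in all columns, which was chosen after seeing the data, they called 40, 40 and 278. The replicate block over 12 columns called 40, 40 and 470. Couple means without the block called 194, or 215 without those features. Without normalisation 654 of the 870 were called, 8.72% of them higher, against 47.8% of 435. The causes were not tested. Values near the floor are bounds.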
